A study of Mus musculus with 21 samples.

Results

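The comparison described here is the response of adult striatal microglia of control offspring to lipopolysaccharide (LPS), read across all genes. Its 11 libraries are 6 from saline-injected and 5 from LPS-injected mice, chosen by title and group label from the 21 libraries of the series. All 11 came from male mice 8 to 10 weeks old born to control dams, so no animal compared here had been exposed to maternal immune activation (MIA), the condition of the other 10 libraries. LPS, the outer membrane glycolipid of Gram-negative bacteria, was given into the peritoneum at 4500 endotoxin units per gram of body weight, and cells were collected 18 hours later. Live CD11b+, CD45-low, P2RY12+ cells were sorted from the dissected striatum, and 5 ng of their RNA was primed at the poly(A) tail and amplified over 9 PCR cycles by a modified Smart-Seq2 protocol. The labels name 1 sequencing batch for all 11. Whether the mice of a group came from separate litters is not said, and the p-values cover only the spread among these libraries.

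Microglia are the resident macrophages of the brain. LPS is sensed by Toll-like receptor 4, and circulating LPS also reaches microglia indirectly, through cytokines released by peripheral and vascular cells. A macrophage response of this kind first induces cytokines and interferon-response genes, and macrophages in this state are known to reorganise their metabolism, protein synthesis and cytoskeleton. The sections that follow do not describe cytokine, interferon, antigen presentation, phagocytic receptor and homeostatic microglial genes as lists of their own. These genes remain in every share over all genes tested, including those by abundance class, gene span and promoter letters.

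Total counts per library, in units of 1000000, were 11.9 to 19.0 after saline and 9.85 to 18.1 after LPS, and 43.3 to 53.8% of counts in any library lay in the ribosomal RNA gene CT010467.1. The groups overlapped in total count (exact two-sided permutation p = 0.714, with 0.00433 the smallest p over 462 divisions), in the number of genes with a count (exact p = 0.587) and in the CT010467.1 share (exact p = 0.548). Mitochondrial protein-coding transcripts took 0.426 to 0.840% of counts after saline and 0.624 to 1.19% after LPS (exact p = 0.0325, not adjusted over the 7 measures compared). On the first principal component the saline libraries lay at 58.0 to 68.1 and the LPS libraries at -80.5 to -71.6. Saline replicate 5 stood apart on the second component, at 57.7 beside 2.81 for the next saline library. Where 1 library moves a printed mean of a named gene by over 1.5 times, the mean without it is given too. Of 12 microglial marker genes, which include the sort marker P2ry12, 10 fell and 0 rose (summed 13686 to 18875 counts per 1000000 counts, CPM, after saline and 5782 to 7238 after LPS). In RNA from sorted cells in bulk, fewer cells of a type and less RNA per cell cannot be told apart. Of 9 tested monocyte markers 8 rose and Ccr2 fell, with summed levels of 14.3 to 28.6 CPM after saline and 86.2 to 149.5 after LPS. Ly6c2, the classical monocyte marker, stood at 0 in 5 saline libraries, at 0.466 CPM in saline replicate 5 and at a mean of 6.11 CPM after LPS. Of 9 tested neutrophil markers 6 rose and 1 fell (summed 157 to 233 and 112 to 174 CPM, of which Csf3r, also a microglial gene, made 180.2 and 71.0), and Ly6g, Mpo and Elane were too low to test. None of 10 lymphocyte markers passed the filter on low counts, and their summed level reached at most 0.871 CPM. Markers of border macrophages, astrocytes, oligodendrocytes, neurons and endothelial cells showed at most 1 rise and 1 fall a list. The summed levels did not overlap for astrocyte markers (173 to 267 CPM after saline, 109 to 149 after LPS) or for endothelial and mural markers (19.0 to 28.0 and 8.58 to 15.2). Of 3 tested erythroid and choroid plexus markers Hbb-bs and Hbb-bt fell, but 0 passed by DESeq2, and the summed level was 0 to 31.3 CPM after saline and 0.0670 to 4.25 after LPS. The part played by cells other than microglia in the results that follow was not tested.

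Of 14741 genes tested, 44.6% passed edgeR's quasi-likelihood test (adjusted p below 0.05). Calls in the upward direction made up 23.3% of genes and calls in the downward direction 21.3%. Changes of at least 2-fold were 10.6% higher and 11.3% lower. In 15.1% of genes every LPS library lay above every saline library, and in 13.9% every LPS library lay below. These shares are the background for each list of genes below, whose counts are read against them. Without saline replicate 5, 3488 genes rose and 3087 fell, beside 3439 and 3141 with it. The median log2 fold change over all genes tested was 0.00. Libraries were scaled by trimmed means (TMM). Under RLE, upper quartile and DESeq2 scaling instead the median moved by -0.0746, -0.0865 and -0.0751, and calls lower after LPS then outnumbered calls higher (3019 and 3578, 2957 and 3654, and 3122 and 3741). A gene or list whose median lies within 0.1 of 0.00 therefore has no firm direction. In every sentence below, "rose" and "fell" are used of genes that passed this test, a value before and after LPS is the mean CPM of 6 saline and 5 LPS libraries with its SD where given, and the error after a log2 fold change is its standard error.

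Abundance was measured as CPM per kilobase of merged exons, which makes genes of different length comparable, and averaged over both groups. The share of genes called increased with abundance, from 32.7% of the 4299 genes under 1 CPM per kb to 42.3% of 5472 genes at 1 to 4, 55.1% of 3768 at 4 to 16, 63.9% of 905 at 16 to 64 and 70.1% of 284 at 64 and over. Precision moved with it, as the standard error had a median of 0.48 in the lowest class and of 0.21, 0.15, 0.14 and 0.17 in the others. Calls of at least 2-fold did not increase steadily from the lowest class. There 490 genes were higher and 710 lower (11.4% and 16.5% of the class), and at 1 to 4, 481 and 525 (8.79% and 9.59%). The counts were 404 and 311 at 4 to 16 (10.7% and 8.25%) and 140 and 80 at 16 to 64 (15.5% and 8.84%). At 64 and over they were 52 and 35 (18.3% and 12.3%). From 1 to 4 upward the share at least 2-fold higher thus climbed. The balance of the directions shifted upward, from 13.3% higher and 19.4% lower in the lowest class to 47.9% higher and 22.2% lower in the highest, and the class medians ran from -0.18 to 0.41.

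The upward shift depended on which libraries set the classes. When the same genes were classed by 5 saline libraries of MIA offspring, which are on neither side of the comparison, 946 of 4463 genes in the lowest class rose and 627 fell, while 86 of 253 genes at 64 and over rose and 82 fell. Of the called genes in that top class, 17 were at least 2-fold higher and 48 at least 2-fold lower. The increase in the share called stayed, from 35.2% in the lowest class to 66.4% in the highest. A class set by the compared libraries themselves moves a strongly induced gene up into a higher class, so its tilt toward rises is partly built into the definition. Only the share called is read here. Precision moved with it, and how far the share called follows precision was not tested. The same holds for the share of counts outside ribosomal RNA. Classed by the compared libraries, genes at 64 and over took 31.8 ± 1.85% after saline and 31.9 ± 1.51% after LPS. Classed by the 5 outside libraries, they took 32.2 ± 1.75% and 28.6 ± 1.29%, and genes under 1 took 1.84 ± 0.130% and 3.57 ± 0.184%. These classes are set by saline libraries alone, so an induced gene counts in a lower class and a repressed gene in a higher one. Their tilt is thus also partly built into the definition, and no direction is read from it.

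**Figure D1:**
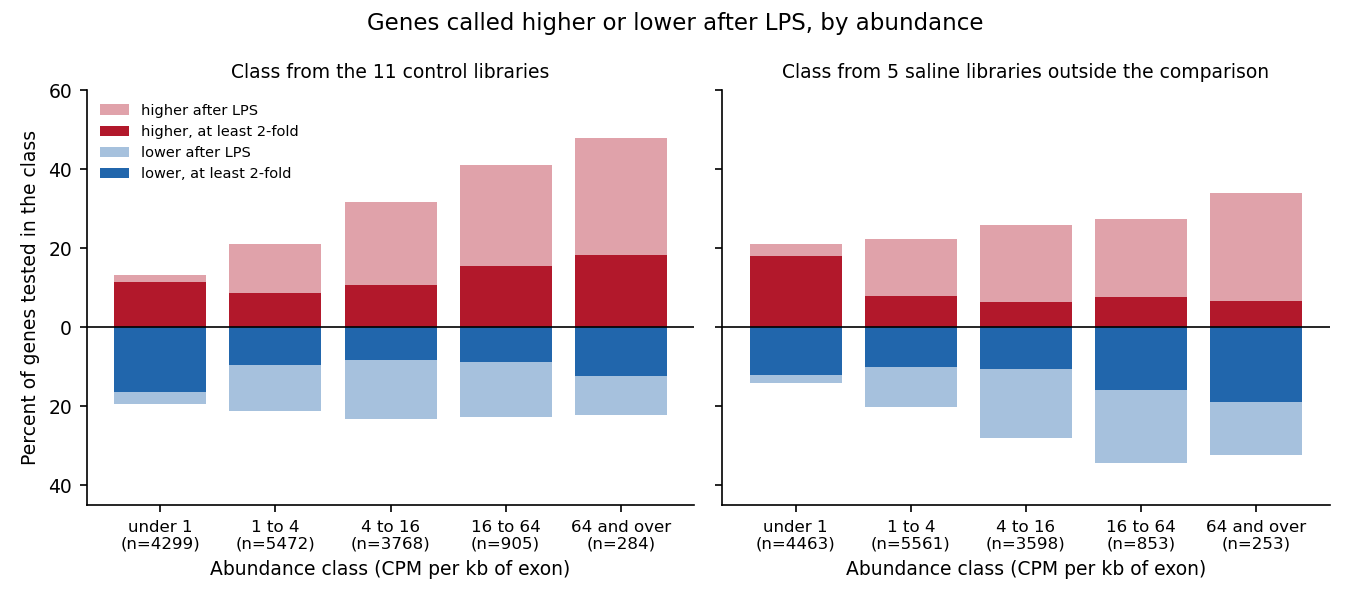
Percent of genes tested in each abundance class (CPM per kb of exon) called higher (above 0) or lower (below 0) after LPS, with calls of at least 2-fold in the darker colour. On the left, where the 11 compared libraries set the classes, the share called higher climbs from 13.3% to 47.9%; on the right, where 5 saline libraries outside the comparison set them, it runs from 21.2% to 34.0% while the share called lower climbs from 14.0% to 32.4%.

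Among the least abundant genes, the largest rises started from 0 counts in all 6 saline libraries. Crispld2, which encodes a secreted LPS-binding protein (chr8:119992438-120052793, GRCm38), reached 6.18, 4.51, 5.09, 6.43 and 5.13 CPM in the 5 LPS libraries and was at least 164-fold higher, with the saline level set to what 3 counts in the whole group would give. Jaml, a leukocyte adhesion molecule, reached 6.99, 6.31, 2.80, 4.69 and 5.29 CPM (at least 157-fold). Prss16, a serine protease first described in thymus, reached 3.47, 2.53, 6.33, 6.57 and 7.37 CPM (at least 158-fold). No saline library overlapped an LPS library for any of these, which the rule for genes named by abundance class required. The filamin-binding protein gene Rflnb was also at 0 counts after saline but spread widely after LPS, at 0.921, 6.55, 0.831, 6.03 and 6.41 CPM. The largest falls went to 0 counts in all 5 LPS libraries. Adcy8, a calcium-stimulated adenylyl cyclase, stood at 2.23 to 4.66 CPM (median 3.06) after saline and was at least 79.1-fold lower. Slc36a2, a proton-coupled amino acid transporter, stood at 1.46 to 4.45 CPM (median 2.33) and was at least 61.9-fold lower, and Klrd1, the CD94 receptor chain, at 0.350 to 3.22 CPM (median 2.32) and at least 47.7-fold lower. These genes are thus close to silent in one state and measurable in every library of the other.

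At 1 to 4 CPM per kb, Xdh, the xanthine dehydrogenase that oxidises purines to uric acid (chr17:73883895-73950196), lay at 0.508 to 1.11 CPM (median 0.785) after saline and at 76.4, 51.8, 91.8, 47.7 and 57.4 CPM after LPS, a log2 fold change of 6.41 ± 0.38 (adjusted p = 4.17e-11). The lowest LPS library exceeded the highest saline library many-fold. Itgal, the alpha chain of the leukocyte integrin LFA-1, rose from 0.0921 ± 0.0801 to 19.3 ± 7.35 CPM. Emb, which encodes embigin, a partner protein of monocarboxylate transporters, rose from 0.165 ± 0.129 to 14.2 ± 4.46 CPM. Both are abundant in blood leukocytes, and the part of such cells in these rises was not tested. Downward, Abcg3, an ABC transporter, fell from 7.53 ± 1.21 to 0.170 ± 0.0968 CPM. Ramp1, a subunit of the receptor for calcitonin gene-related peptide, fell from 15.7 ± 2.08 to 0.797 ± 0.402 CPM, with a log2 fold change of -4.30 ± 0.30. Every LPS library lay below every saline library for both, as the rule required.

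At 4 to 16 CPM per kb, Mcemp1, a small membrane protein of myeloid and mast cells, went from 0 counts in every saline library to 46.9, 27.3, 49.4, 48.5 and 27.6 CPM, at least 1200.1-fold higher. Cd244a, the SLAM-family receptor 2B4, rose from 0.545 ± 0.354 to 99.2 ± 9.17 CPM, with 5 LPS libraries between 83.6 and 107 CPM. Fgr, a Src-family kinase of myeloid cells, rose from 0.771 ± 0.575 to 105 ± 14.7 CPM. Lrg1, an acute phase glycoprotein, rose from 0.0675 ± 0.106 to 18.1 ± 3.38 CPM (saline mean 0.0350 without saline replicate 4). Each of the 4 averaged under 1 CPM after saline, and their groups lay apart, as the rule required. Thrsp, a regulator of lipogenic enzymes, fell from 23.6 ± 4.05 to 1.02 ± 0.654 CPM (log2 fold change -4.49 ± 0.28). Tppp, a tubulin polymerisation protein, fell from 49.4 ± 3.74 to 3.57 ± 1.24 CPM, and Slc46a3, a lysosomal transporter, fell from 50.4 ± 9.69 to 3.74 ± 0.728 CPM. Bank1, a signalling scaffold named for B cells, fell from 61.0 ± 6.70 to 5.20 ± 1.94 CPM.

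At 16 to 64 CPM per kb, Hcar2, the receptor for niacin and the ketone body beta-hydroxybutyrate (chr5:123863570-123865499), lay at 2.36 to 6.70 CPM (median 3.08) after saline and at 218, 209.9, 224, 216 and 190.1 CPM after LPS (log2 fold change 5.90 ± 0.24). Ehd1, an ATPase of the endocytic recycling compartment, lay at 1.55 to 5.95 CPM (median 3.55) and at 197, 136, 211, 195 and 149.7 CPM. Gpr65, a proton-sensing receptor, rose from 4.77 ± 2.62 to 94.5 ± 18.1 CPM, and Plin2, which coats lipid droplets, rose from 10.2 ± 2.13 to 106 ± 31.6 CPM. In all 4 the groups lay apart, as the rule required. The falls were led by Cryba4, named for a lens crystallin, at 27.8 to 1.87 CPM, and by Lst1, a small leukocyte membrane protein, at 17.7 to 1.94 CPM. Plxdc2, a transmembrane protein with a plexin-like domain (chr2:16356304-16755839), lay at 556 to 643 CPM (median 579) and fell to 83.0, 65.7, 94.3, 71.5 and 69.2 CPM. The highest of its LPS libraries lay far below the lowest of its saline libraries. Adgrg1, the adhesion receptor GPR56, fell from 235 ± 42.0 to 31.4 ± 10.0 CPM, and Hpgd, which degrades prostaglandins, fell from 163 ± 36.4 to 23.8 ± 5.70 CPM.

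At 64 CPM per kb and over, Srgn, the core protein of the granule proteoglycan serglycin (chr10:62493833-62527451), lay at 64.2 to 145 CPM (median 94.7) after saline and at 1440.0, 1181, 1227, 1422 and 1107 CPM after LPS (log2 fold change 3.68 ± 0.18). Sdc4, the cell surface heparan sulfate proteoglycan syndecan 4, rose from 62.1 ± 7.86 to 812 ± 132 CPM. For both proteoglycan cores the lowest LPS library lay far above the highest saline library. Igsf6, an immunoglobulin-domain receptor of myeloid cells, rose from 30.6 ± 2.98 to 352 ± 77.2 CPM, and Id2, an inhibitor of basic helix-loop-helix factors, rose from 47.6 ± 8.69 to 319.8 ± 49.6 CPM. Bcl2a1a and Bcl2a1d, copies of a survival gene of the BCL2 family, rose from 10.7 ± 1.57 to 116 ± 29.3 CPM and from 5.08 ± 1.41 to 59.3 ± 18.2 CPM; they are near-identical, so how their reads were divided is uncertain. Selenop, the secreted carrier of selenium (chr15:3268547-3280508), lay at 2256 to 2986 CPM (median 2509) and fell to 532, 579, 468, 558 and 532 CPM (log2 fold change -2.26 ± 0.16, adjusted p = 1.21e-11). Rgs10, a brake on G protein signalling, fell from 239 ± 46.4 to 56.2 ± 7.95 CPM. Pld4, a lysosomal nuclease, fell from 388 ± 48.4 to 110.4 ± 20.2 CPM, and Hexa, a subunit of lysosomal beta-hexosaminidase, fell from 206 ± 64.9 to 64.4 ± 6.00 CPM. The groups lay apart for these 4 falls, as the rule required.

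**Figure D2:**
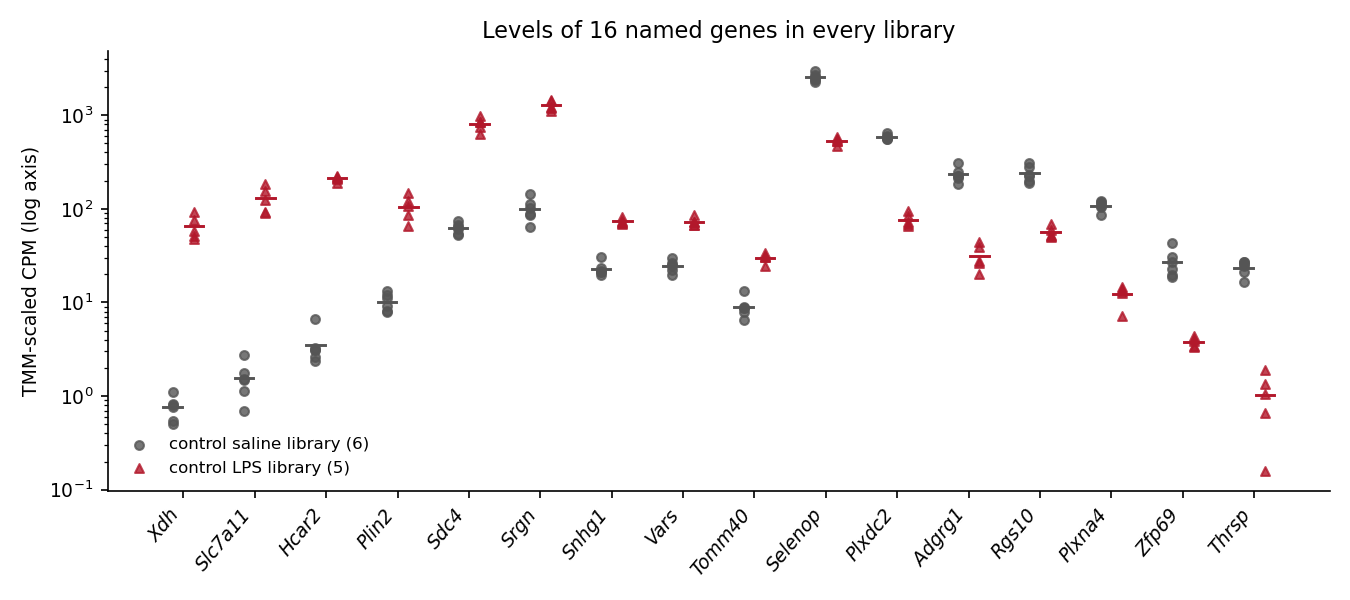
TMM-scaled CPM (log axis) of 16 named genes in each of the 6 control saline libraries (grey circles) and 5 control LPS libraries (red triangles), with group means as bars. No gene shown has overlapping groups, which was a condition for the genes named by abundance class. For Selenop the saline libraries lie at 2256 to 2986 CPM and the LPS libraries at 468 to 579. For Xdh they lie at 0.508 to 1.11 and at 47.7 to 91.8.

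The transcriptome was then read through 86 lists of pathways and gene families, which cover 3374 of the genes tested. More members rose than fell in 47 lists and more fell than rose in 35. Lists of protein synthesis, mitochondria, nucleotide and redox metabolism lay on the rising side, and lists of guidance receptors, adhesion receptors, Ras regulators, zinc finger factors and histones lay on the falling side. In 8 lists at least 5 members rose and 0 fell, a number that was 4 under RLE and upper quartile scaling and 5 by DESeq2. No list was tested as a set, and the counts describe these lists beside the background of 23.3% higher and 21.3% lower.

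**Figure D3:**
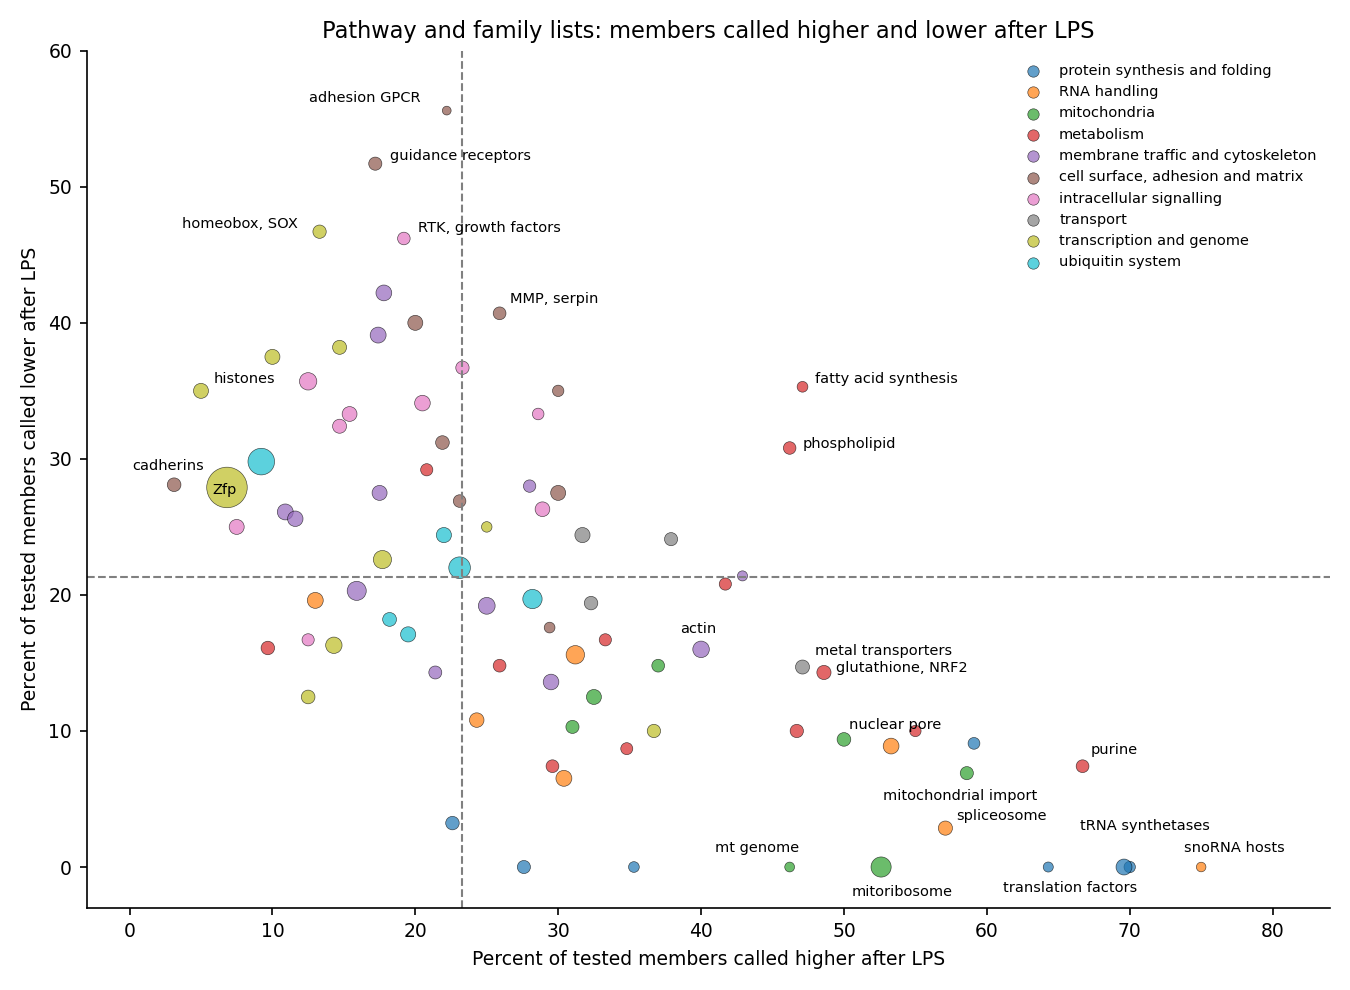
Percent of tested members called higher (x axis) and lower (y axis) after LPS in each of 86 lists, with point area growing with the number of tested members; dashed lines mark the 23.3% and 21.3% over all genes tested. Biosynthetic and mitochondrial lists lie at the lower right (snoRNA host genes with 9 of 12 higher and 0 lower), and guidance receptors (17.2% higher, 51.7% lower) and other surface and signalling lists at the upper left.

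Genes of protein synthesis rose often and almost none fell. The cytosolic aminoacyl-tRNA synthetases charge tRNAs with their amino acids, and 14 of the 20 rose and 0 fell (median log2 fold change 0.90). Vars, for valine, rose from 24.7 ± 3.55 to 73.0 ± 7.40 CPM (log2 fold change 1.56 ± 0.13), and Gars, for glycine, rose from 14.4 ± 2.93 to 31.8 ± 4.45 CPM. All 14 that rose had LPS libraries entirely above saline libraries, and their list summed to 452 to 544 CPM after saline and 651 to 899 after LPS. Among translation initiation and elongation factors 32 of the 46 rose and 0 fell (median log2 fold change 0.53). Eif5a, whose protein carries the modified residue hypusine, rose from 33.1 ± 7.51 to 105 ± 16.5 CPM, and Eef1g, an elongation factor subunit, rose (log2 fold change 1.29 ± 0.16). For the cytosolic chaperonin and prefoldin, which fold actin, tubulin and other new proteins, 9 of the 14 rose and 0 fell (median log2 fold change 0.76), led by Tcp1 (45.3 to 94.6 CPM, log2 fold change 1.06 ± 0.12) and Cct2 (50.5 to 104 CPM, 1.04 ± 0.12). At the endoplasmic reticulum, 13 of the 22 rose and 2 fell (median log2 fold change 0.41) for the translocon and signal peptidase list, with the translocon-associated subunits Ssr3 (88.4 to 220.4 CPM), Ssr4 (84.5 to 184 CPM) and Ssr2 (46.3 to 94.5 CPM) at the head.

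The protein synthesis and folding lists together are given here beside all genes of the same abundance class. In the class at 1 to 4 CPM per kb, 21 of 37 rose and 0 fell (56.8% higher, against 21.2% of all genes). In the class at 4 to 16, 43 of 93 rose and 3 fell (46.2% against 31.8%), and in the class at 16 to 64, 21 of 38 rose and 0 fell (55.3% against 41.2%). At 64 and over, 4 of 6 rose and 0 fell, where 47.9% of all genes were higher. The share over all genes climbs with these classes partly through their definition, so no trend is read from the distance. The highest class held too few members to set apart. Of the 5 members under 1, none was called. Of N-glycan assembly genes 8 of the 29 rose and 0 fell (median log2 fold change 0.25), with Alg5, a dolichol-phosphate glucosyltransferase, rising from 14.8 ± 2.46 to 42.3 ± 4.23 CPM. Without LPS replicate 1 that list had 5 rises. Of COPI and COPII coat genes and cargo receptors 7 of the 31 rose and 1 fell (median log2 fold change 0.15), which is near the background share of rises. Mitochondrial synthetases showed 6 rises and 0 falls among 17, led by Tars2 (14.3 to 33.1 CPM); their summed CPM overlapped between groups (1548 to 3881 and 2278 to 3522), and most of it lay in Lars2, which held 2532 CPM after saline and 2507 after LPS.

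The synthetase promoters were searched for the composite element of ATF4 and C/EBP factors (TGATGNAAN, either strand), which occurs in amino acid response genes, in the 300 bases from 250 before to 50 after the start. RefSeq windows (GRCm38.p6) matched 12 of the 20 synthetases by symbol, and 5 of these 12 held the element, a share of 41.7% beside 2.77% of the 9307 tested protein-coding genes with a window and 4.50% of all 27025 genes in the table. The element is shown in capitals with 20 bases on either side, on the strand of the gene, and Aars holds it at 2 positions.
Aars, chr8:111033709-111033757: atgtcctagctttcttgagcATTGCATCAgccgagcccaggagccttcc
Aars, chr8:111033830-111033878: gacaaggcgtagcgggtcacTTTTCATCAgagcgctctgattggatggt
Gars, chr6:55037950-55037998: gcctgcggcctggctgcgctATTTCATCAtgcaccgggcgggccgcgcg
Iars, chr13:49682116-49682164: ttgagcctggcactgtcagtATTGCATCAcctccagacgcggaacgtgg
Tars, chr15:11399646-11399694, minus strand: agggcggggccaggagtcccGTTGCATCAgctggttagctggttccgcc
Yars, chr4:129189886-129189934: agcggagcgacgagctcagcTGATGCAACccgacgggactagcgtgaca
Of the 5 genes with the element, Gars, Iars and Tars rose (log2 fold changes 1.15 ± 0.16, 0.59 ± 0.14 and 0.99 ± 0.18), while Aars (0.02 ± 0.16) and Yars (0.41 ± 0.22) did not pass the test. Of the 7 with a window but without the element, 5 rose. Within the family the element was thus present both in genes that rose and in genes that did not pass the test. Iars, Tars, Aars and Yars are named for this search, after their values were seen.

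In RNA handling, 12 tested host genes of small nucleolar RNAs stood out by size. Their transcripts carry in their introns the guide RNAs that direct chemical modification of ribosomal RNA, and 9 of the 12 rose and 0 fell (median log2 fold change 1.38). Snhg1 lay at 19.8 to 30.5 CPM (median 21.4) after saline and at 69.9, 69.2, 73.4, 81.9 and 72.9 CPM after LPS, Snhg5 rose from 10.8 ± 1.53 to 39.0 ± 6.13 CPM and Snhg6 rose from 5.14 ± 1.18 to 17.8 ± 4.19 CPM. The list summed to 149.9 to 201 CPM after saline and 420.4 to 504 after LPS, with no overlap. The spliced exons of these genes are known to be degraded when translated. Among spliceosome core proteins 20 of the 35 rose and 1 fell (median log2 fold change 0.44), with Snrpd1 (7.73 to 19.6 CPM) and Prpf31 (10.1 to 23.5 CPM) at the head. Nuclear pore subunits and transport receptors followed, as 24 of the 45 rose and 4 fell (median log2 fold change 0.37). Kpna2, an importin alpha, rose from 9.70 ± 0.998 to 27.5 ± 4.42 CPM and Ipo4, an importin of histones, rose from 12.3 ± 2.07 to 30.7 ± 7.33 CPM.

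Splicing regulators gave calls in both directions. Of SR and hnRNP proteins 6 of the 46 rose and 9 fell (median log2 fold change 0.02), and this median changed sign under other scalings. Rbm3, a cold-inducible RNA-binding protein, rose from 45.6 ± 7.71 to 265 ± 43.6 CPM, the largest change in the list, and Hnrnpa1 rose from 146 ± 14.7 to 259.5 ± 16.0 CPM. Mbnl1, a regulator of alternative splicing, fell from 626 ± 60.6 to 325 ± 16.8 CPM, and Hnrnph3 fell from 15.9 ± 1.66 to 6.72 ± 0.750 CPM. Among enzymes that modify tRNA and other RNA 20 of the 64 rose and 10 fell (median log2 fold change 0.23). Pus7l and Pus7, which make pseudouridine, rose from 0.820 ± 0.308 to 5.51 ± 1.82 CPM and from 6.40 ± 1.50 to 16.8 ± 2.80 CPM, and Mettl1, a tRNA methyltransferase, rose from 2.89 ± 0.982 to 7.95 ± 0.919 CPM. None of the 10 falls in that list reached 2-fold, and without saline replicate 2 there were 6. Mediator and Integrator genes showed 14 rises and 3 falls among 46, led by Med15 (22.8 to 46.5 CPM). For the RNA exosome and CCR4-NOT deadenylase 9 of the 37 rose and 4 fell (median log2 fold change 0.09), a balance that narrowed to 6 and 6 by DESeq2.

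Mitochondrial genes of protein synthesis and import rose often and rarely fell. For mitochondrial ribosomal proteins, which translate the few proteins encoded by the organelle, 41 of the 78 rose and 0 fell (median log2 fold change 0.47), with Mrps18b (3.95 to 12.5 CPM, log2 fold change 1.67 ± 0.23) and Mrpl12 (8.64 to 19.5 CPM, 1.17 ± 0.19) leading. Most of these changes were small: 5 of the 41 rises reached 2-fold and 18 had groups lying apart. For import through the outer and inner membranes 17 of the 29 rose and 2 fell (median log2 fold change 0.66). Tomm40, the channel of the outer membrane, rose from 8.98 ± 2.21 to 30.1 ± 3.48 CPM, and Timm10, an intermembrane space chaperone, and Timm23, the inner membrane channel, rose from 4.88 ± 0.898 to 15.9 ± 2.98 CPM and from 16.9 ± 1.37 to 38.9 ± 7.85 CPM. For the tricarboxylic acid cycle and pyruvate dehydrogenase 16 of the 32 rose and 3 fell (median log2 fold change 0.45). Idh3a, of the NAD-linked isocitrate dehydrogenase, rose from 12.7 ± 2.55 to 32.2 ± 5.09 CPM, while Idh2, its NADP-linked counterpart, fell from 37.0 ± 5.72 to 16.9 ± 3.33 CPM and Pdk1, the kinase that switches pyruvate dehydrogenase off, fell from 46.9 ± 3.84 to 13.5 ± 1.34 CPM.

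The 13 protein-coding genes of the mitochondrial genome had a median log2 fold change of 0.58, and 6 rose, but in none did the groups lie apart. mt-Nd1, a subunit of respiratory complex I, stood at 1282 CPM after saline and 2199 after LPS. Saline replicate 5 was low in this fraction, at 0.426% of counts beside at least 0.695% in the other saline libraries, and without it 5 of the 13 rose. Without saline replicate 1 or without saline replicate 3, 3 rose. In the mitochondrial dynamics and quality control list 10 of the 27 rose and 4 fell. Its median log2 fold change of 0.04 changed sign under other scalings. Pink1, a kinase that marks damaged mitochondria for removal, fell from 14.5 ± 3.39 to 6.52 ± 1.77 CPM, whereas Ppargc1b, a coactivator of mitochondrial biogenesis, rose from 0.935 ± 0.306 to 4.45 ± 0.696 CPM and Phb, prohibitin, rose from 13.0 ± 5.14 to 27.6 ± 2.98 CPM. Mitochondrial solute carriers showed 13 rises and 5 falls among 40. Slc25a22, a glutamate carrier, rose from 4.58 ± 1.19 to 12.9 ± 1.96 CPM, and Slc25a37, the iron carrier mitoferrin, fell from 117 ± 7.25 to 45.9 ± 11.8 CPM. Of iron-sulfur cluster and heme synthesis genes 9 of the 29 rose and 3 fell (median log2 fold change 0.22), with Bola3 (3.64 to 9.03 CPM) and Ciapin1 (5.68 to 12.3 CPM) leading. Over all mitochondrial lists, 39 of 92 rose and 5 fell in the class at 1 to 4 CPM per kb (42.4% higher, against 21.2% of all genes of that class) and 54 of 101 rose and 7 fell at 4 to 16 (53.5% against 31.8%). At 16 to 64, 9 of 17 rose and 2 fell (52.9% against 41.2%), and at 64 and over, 7 of 13 rose and 0 fell (53.8% against 47.9%). These upper groups are small. Since the share over all genes climbs partly through the definition of the classes, no trend is read from the distance here either. In the lowest class, 3 of 25 rose and 3 fell, beside 13.3% higher over all genes.

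**Figure D4:**
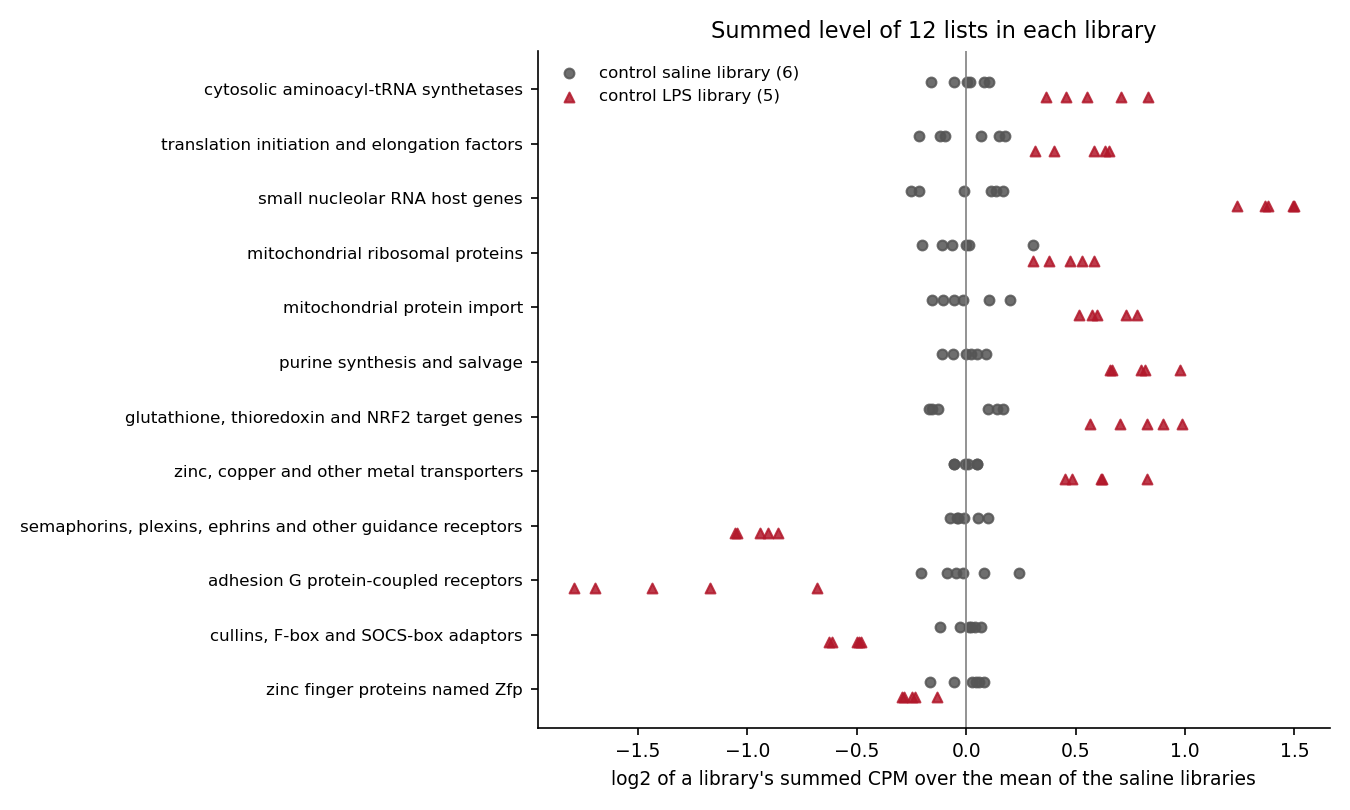
log2 of the summed CPM of 12 lists in each control saline library (grey circles, 6) and control LPS library (red triangles, 5) relative to the mean of the saline libraries. The groups lie apart in 10 of the 12 lists. For mitochondrial ribosomal proteins saline replicate 5 reaches the lowest LPS library (985 CPM in both), and for zinc finger proteins named Zfp the groups overlap (5107 to 6051 CPM after saline, 4672 to 5222 after LPS). The 12 were picked from the 86 lists and do not stand for them. Sums of other lists overlap, such as the tricarboxylic acid cycle list (748 to 971 CPM after saline, 848 to 1104 after LPS).

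Nucleotide metabolism held some of the largest rises of any list. Of purine synthesis and salvage genes 18 of the 27 rose and 2 fell (median log2 fold change 0.99), and 13 rises were at least 2-fold. Besides Xdh, Gda, a guanine deaminase, rose from 0.269 ± 0.276 to 5.36 ± 2.22 CPM, and Adssl1, an adenylosuccinate synthase, rose from 2.37 ± 0.611 to 10.2 ± 3.17 CPM. The list summed to 441 to 508 CPM after saline and 751 to 939 after LPS. Of pyrimidine genes 11 of the 20 rose and 2 fell (median log2 fold change 0.52). Uck2, a uridine kinase, rose from 0.626 ± 0.301 to 3.97 ± 1.23 CPM, Ctps, which makes CTP, rose from 3.36 ± 1.01 to 11.6 ± 2.76 CPM, and Cmpk2, a mitochondrial nucleotide kinase that is also interferon-inducible, rose from 1.45 ± 0.494 to 7.71 ± 3.90 CPM. In serine, glycine and folate metabolism 8 of the 23 rose and 2 fell (median log2 fold change 0.26). Mthfd1l and Mthfd2, of the mitochondrial folate pathway, rose from 2.45 ± 0.809 to 11.3 ± 1.49 CPM and from 5.35 ± 1.12 to 19.6 ± 9.50 CPM, Psat1, of serine synthesis, rose from 12.1 ± 1.58 to 44.5 ± 11.3 CPM, and Ahcy, which clears S-adenosylhomocysteine, rose from 3.96 ± 1.50 to 16.0 ± 3.23 CPM. These enzymes supply carbon units to purine synthesis as well as to methylation.

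Among glutathione, thioredoxin and NRF2 target genes, which buffer oxidants, 17 of the 35 rose and 5 fell (median log2 fold change 0.69); without saline replicate 5, 3 fell. Slc7a11, the cystine importer that feeds glutathione synthesis (chr3:49892526-50443614), lay at 0.699 to 2.78 CPM (median 1.50) after saline and at 93.3, 157, 125, 185 and 90.4 CPM after LPS, a log2 fold change of 6.38 ± 0.39 (adjusted p = 2.25e-10). Sod2, the mitochondrial superoxide dismutase, rose from 32.7 ± 4.16 to 330.1 ± 94.2 CPM, and Msrb1, which repairs oxidised methionine, rose from 1.25 ± 0.392 to 12.9 ± 2.24 CPM. The Slc7a11 window is printed because the gene had the largest change of the list and its window holds the composite element at 2 positions, on opposite strands (capitals), with their first printed bases 66 and 48 bases before the start.
Slc7a11, chr3:50443564-50443863, minus strand: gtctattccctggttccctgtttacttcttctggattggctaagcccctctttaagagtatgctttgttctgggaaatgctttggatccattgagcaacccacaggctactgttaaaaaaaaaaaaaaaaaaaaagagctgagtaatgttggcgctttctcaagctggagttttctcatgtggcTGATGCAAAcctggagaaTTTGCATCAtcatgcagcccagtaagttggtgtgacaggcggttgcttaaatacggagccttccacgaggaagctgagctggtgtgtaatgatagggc
Among all genes called at least 2-fold higher with a window, 50 of 1026 (4.87%) held the element, beside 23 of 862 (2.67%) of those at least 2-fold lower and 2.85% of genes not called. The share over all 27025 genes with a RefSeq window, 4.50%, was close to that of the genes called higher. These shares were not tested.

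Lipid genes changed in both directions and by large amounts. In fatty acid synthesis and desaturation 8 of the 17 rose and 6 fell (median log2 fold change 0.49), and 11 of the 14 changes were at least 2-fold. Thrsp fell as given above, and the elongation-cycle dehydratase genes parted: Hacd4 fell from 28.5 ± 3.48 to 1.67 ± 1.48 CPM (LPS mean 1.05 without LPS replicate 3) and Hacd2 rose from 16.1 ± 1.46 to 99.5 ± 11.9 CPM. In lipid droplet and triglyceride metabolism 10 of the 24 rose and 5 fell (median log2 fold change 0.31). G0s2, an inhibitor of triglyceride lipase, rose from 0.639 ± 0.283 to 4.86 ± 1.79 CPM, with Plin2 (above), and Mgll, which hydrolyses monoacylglycerols including the endocannabinoid 2-arachidonoylglycerol, fell from 25.4 ± 3.80 to 3.78 ± 1.16 CPM. In phospholipid metabolism 12 of the 26 rose and 8 fell (median log2 fold change 0.09). Pla2g7, the phospholipase that inactivates platelet-activating factor, rose from 1.19 ± 0.688 to 8.95 ± 3.87 CPM and Cept1, which makes phosphatidylcholine and phosphatidylethanolamine, rose from 62.7 ± 9.79 to 211 ± 37.6 CPM. Pla2g15, a lysosomal phospholipase, fell (log2 fold change -1.61 ± 0.17) and Mboat1, a lysophospholipid acyltransferase, fell from 9.78 ± 2.03 to 1.71 ± 0.571 CPM. In sphingolipid metabolism 14 of the 30 rose and 3 fell (median log2 fold change 0.23). Sphk1, which makes sphingosine 1-phosphate, rose from 0.169 ± 0.235 to 6.94 ± 4.85 CPM (saline mean 0.0782 without saline replicate 3), and Ugcg, the first enzyme of glycosphingolipid synthesis, rose from 29.9 ± 4.24 to 94.9 ± 5.09 CPM, whereas St3gal5, which makes the ganglioside GM3, fell from 39.3 ± 6.81 to 16.2 ± 2.54 CPM. Fatty acid oxidation showed 8 rises and 2 falls among 27 with a median of 0.07, led by Eci2 (24.4 to 71.0 CPM) and, downward, Acads (33.2 to 15.3 CPM).

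Arginine and NAD metabolism moved through single genes more than as lists. Arg1, arginase, rose from 0.375 ± 0.457 to 11.9 ± 4.87 CPM (log2 fold change 4.90 ± 0.60; saline mean 0.194 without saline replicate 5), and Ddah2, of the dimethylarginine hydrolase family, fell from 14.4 ± 2.54 to 4.62 ± 1.23 CPM. Srm, of spermidine synthesis, rose from 10.6 ± 2.40 to 30.4 ± 9.13 CPM. The polyamine and arginine list had 8 rises and 4 falls among 24, and 7 and 7 under RLE, upper quartile and DESeq2 scaling. Cd38, an NAD hydrolase, rose from 1.35 ± 0.725 to 17.3 ± 7.11 CPM, and Nnt, the mitochondrial transhydrogenase, fell from 10.1 ± 3.14 to 2.85 ± 1.22 CPM. In tryptophan and NAD metabolism overall 5 of the 24 rose and 7 fell (median log2 fold change -0.12). Peroxisome genes had 3 rises and 5 falls among 31.

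Actin genes rose more often than they fell. In actin nucleation and turnover 20 of the 50 rose and 8 fell (median log2 fold change 0.21). Flna, the filament cross-linker filamin A, lay at 61.3 to 70.1 CPM (median 64.7) after saline and at 692, 439, 705, 619.7 and 403 CPM after LPS. The formins Diaph1 and Fmnl2 rose from 10.6 ± 2.53 to 77.1 ± 8.49 CPM and from 13.2 ± 2.54 to 88.5 ± 4.59 CPM, and Coro1c, a coronin, rose from 23.1 ± 1.56 to 93.6 ± 15.9 CPM. No saline library reached the LPS range in any of these. Tuba1c, a tubulin, rose from 28.7 ± 9.45 to 149.6 ± 42.2 CPM. Motor proteins split: Kif2c, a microtubule depolymerase of dividing cells, rose from 0.535 ± 0.379 to 9.98 ± 1.97 CPM, and Kif21b, a kinesin that pauses microtubule growth, had a log2 fold change of -2.37 ± 0.15.

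In membrane traffic, falls outnumbered rises among sorting nexins, autophagy genes and SNARE genes, and rises outnumbered falls among Rab GTPases. Among sorting nexins and the retromer 5 of the 46 rose and 12 fell (median log2 fold change -0.02), with Snx10 (71.7 to 210.3 CPM) and Snx1 (21.2 to 67.4 CPM) higher and Snx29 (114 to 29.0 CPM) and Ccdc93 (106 to 42.1 CPM) lower. In the autophagy machinery 5 of the 43 rose and 11 fell (median log2 fold change -0.12). Ulk2, an initiating kinase, fell from 96.9 ± 8.47 to 44.6 ± 7.11 CPM and Map1lc3a, an LC3 family member, fell from 10.3 ± 2.22 to 5.22 ± 1.83 CPM. Rab GTPases showed 13 rises and 6 falls among 44 around a median of 0.01; Rab7b, of the late endosome, rose from 0.213 ± 0.327 to 3.10 ± 0.671 CPM (saline mean 0.0813 without saline replicate 5) and Rab6b, a Golgi Rab, fell from 38.3 ± 4.20 to 10.6 ± 1.53 CPM. SNARE genes had 7 rises and 11 falls among 40, with Stx3 (1.95 to 6.22 CPM) higher and Vamp1 (24.6 to 11.6 CPM) lower. Of these 4 lists only the autophagy list had a median more than 0.1 from 0.00.

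Receptors of the cell surface that read position and contact fell more often than they rose. Among semaphorins, plexins, ephrins and other guidance receptors, which steer growing axons and migrating cells, 5 of the 29 rose and 15 fell (median log2 fold change -0.68). Plxna4, a semaphorin receptor, lay at 85.2 to 121 CPM (median 109) after saline and at 12.7, 13.2, 14.0, 7.17 and 14.6 CPM after LPS (log2 fold change -3.13 ± 0.15), and Sema6d fell from 12.9 ± 2.40 to 1.81 ± 1.09 CPM. The exceptions were large: Plxnd1 rose from 0.469 ± 0.290 to 6.09 ± 2.70 CPM and Sema6b rose from 2.02 ± 1.01 to 25.5 ± 7.96 CPM. The list summed to 876 to 986 CPM after saline and 444 to 509 after LPS. Among cadherins and protocadherins 1 of the 32 rose and 9 fell (median log2 fold change -0.35). Cdh23, a cadherin known from hair cells, fell from 104 ± 14.5 to 12.7 ± 2.34 CPM and Fat3 fell from 116 ± 18.9 to 14.0 ± 6.51 CPM. Celsr3, a cadherin of planar polarity, was the single rise, at 0.428 to 6.59 CPM. Of 9 adhesion G protein-coupled receptors 5 fell and 2 rose (median -0.98), with Adgrg1 (above) and Adgrl2, a latrophilin (34.8 to 7.91 CPM), lower and Adgre5, the leukocyte receptor CD97 (0.607 to 5.04 CPM), higher.

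Matrix, protease and glycan genes changed strongly in either direction. Lama5, a laminin chain, rose from 0.243 ± 0.283 to 14.4 ± 9.72 CPM (saline mean 0.145 without saline replicate 2). Fn1, fibronectin, which is also one of the monocyte markers, rose from 0.279 ± 0.287 to 36.4 ± 22.3 CPM (saline mean 0.167 without saline replicate 4). In the list of matrix metalloproteinases, the plasminogen system and serpins 7 of the 27 rose and 11 fell (median log2 fold change -0.20), and all 18 changes were at least 2-fold. Mmp28 lay at 3.30 to 5.19 CPM (median 4.04) after saline and at 2 counts in all after LPS. Among ADAM and ADAMTS genes Adamtsl4 rose from 2.84 ± 1.25 to 68.1 ± 14.4 CPM and Adam8 rose from 1.75 ± 0.392 to 16.7 ± 4.94 CPM. Among immunoglobulin-type adhesion molecules Cd44, the hyaluronan receptor, rose from 0.844 ± 0.320 to 46.2 ± 21.4 CPM and Jam2 fell from 45.8 ± 4.13 to 4.53 ± 2.21 CPM. Glycosaminoglycan genes were balanced, at 12 rises and 11 falls among 40, but the list summed to 594 to 681 CPM after saline and 1317 to 1562 after LPS, of which Sdc4 alone made 62.1 and 812. In sialyl-, fucosyl- and mucin-type glycosylation 8 of the 40 rose and 16 fell (median log2 fold change -0.24), with Galnt6 (0.856 to 24.8 CPM) and St3gal1 (4.28 to 26.6 CPM) higher and St8sia4, a polysialyltransferase (12.2 to 1.89 CPM), lower. Cd63, a tetraspanin of late endosomes and exosomes, rose from 51.6 ± 8.25 to 318 ± 43.6 CPM, and Tspan18 fell from 14.6 ± 3.11 to 0.474 ± 0.380 CPM. Across all surface, adhesion and matrix lists, falls outnumbered rises in each of the 5 abundance classes. In the lowest class, 22 of 124 rose and 34 fell, and there falls also outnumbered rises over all genes (13.3% higher and 19.4% lower). In the class at 1 to 4 CPM per kb, 18 of 74 rose and 27 fell, while all genes were even (21.2% and 21.1%). In the class at 4 to 16, 12 of 44 rose and 20 fell, against 31.8% higher and 23.3% lower over all genes. At 16 to 64, 5 of 21 rose and 8 fell (all genes 41.2% and 22.7%), and at 64 and over, 2 of 8 rose and 4 fell (all genes 47.9% and 22.2%).

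Second messenger and GTPase signalling genes fell more often than they rose. Of cyclic nucleotide phosphodiesterases and adenylyl cyclases 6 of the 39 rose and 13 fell (median log2 fold change -0.31). Pde4b, the phosphodiesterase long tied to LPS responses of myeloid cells, rose from 23.6 ± 5.41 to 110.2 ± 15.3 CPM, against Adcy8 (above) and Pde8b (13.6 to 4.68 CPM), which fell. Of regulators of G protein signalling and G protein subunits 3 of the 40 rose and 10 fell (median log2 fold change -0.11). With Rgs10 (above), Rgs2 fell from 128 ± 9.22 to 30.4 ± 5.86 CPM and Arrb1, an arrestin, fell from 78.9 ± 3.74 to 24.6 ± 6.53 CPM, while Grk6, a receptor kinase, rose from 5.44 ± 1.29 to 23.2 ± 4.50 CPM. Of Ras exchange factors and GTPase-activating proteins 7 of the 56 rose and 20 fell (median log2 fold change -0.21). Rapgef5 and Rasgrp3 fell from 214 ± 24.6 to 47.0 ± 8.40 CPM and from 169 ± 10.4 to 37.5 ± 5.20 CPM, and Spry1, a feedback inhibitor of growth factor signalling, fell from 8.15 ± 2.31 to 1.68 ± 0.593 CPM. Of protein kinase C, diacylglycerol kinase and phospholipase C genes 5 of the 34 rose and 11 fell (median log2 fold change -0.12), with Prkca (51.4 to 14.2 CPM) and the phospholipase-like Plcl1 (34.7 to 9.05 CPM) lower. Of phosphoinositide 3-kinase, AKT and mTOR genes 9 of the 44 rose and 15 fell (median log2 fold change -0.18). Eif4ebp1, the mTOR-controlled repressor of cap-dependent translation, rose from 11.1 ± 2.39 to 42.5 ± 9.77 CPM, and Inpp4b, a phosphoinositide phosphatase, fell from 111 ± 15.1 to 30.9 ± 13.2 CPM. The intracellular signalling lists also hold the calcium, growth factor, Wnt, Notch and BMP lists. Over all of them, 18 of 100 rose and 41 fell at 4 to 16 CPM per kb, where 31.8% of all genes were higher. At 16 to 64, 3 of 34 rose and 12 fell, where 41.2% of all genes were higher. In the class at 1 to 4, however, 28 of 108 rose and 33 fell (25.9% higher, against 21.2% of all genes). Under 1, 12 of 106 rose and 24 fell (11.3% against 13.3%), and at 64 and over, 1 of 4 rose and 3 fell.

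Growth factor genes fell more often than they rose, along with a few large rises, while calls in the Wnt and BMP lists were nearly even. The Notch, Wnt and BMP medians lay within 0.1 of 0.00 and so have no firm direction. Among receptor tyrosine kinases and growth factors 5 of the 26 rose and 12 fell (median log2 fold change -0.30); without LPS replicate 2 or without LPS replicate 4, 3 rose. Igfbp6, which binds insulin-like growth factor II, went from 0 counts to 2.65, 1.92, 2.28, 1.88 and 3.45 CPM (at least 73.2-fold), Met rose from 0.187 ± 0.176 to 2.60 ± 0.549 CPM (saline mean 0.123 without saline replicate 1) and Gas6, the ligand of the TAM receptors, fell from 25.2 ± 5.64 to 3.94 ± 1.03 CPM. Of Notch, Hippo and Hedgehog pathway genes 7 of the 30 rose and 11 fell (median log2 fold change -0.03). Jag1, a Notch ligand, rose from 0.756 ± 0.347 to 8.69 ± 4.28 CPM, and Notch4 rose (log2 fold change 2.15 ± 0.39). Of Wnt pathway genes 3 of the 24 rose and 4 fell (median log2 fold change -0.06), and of BMP, activin and inhibitory TGF-beta family genes 6 of the 21 rose and 7 fell (median log2 fold change 0.02). The inhibitors Id1 and Id3 rose from 0.574 ± 0.188 to 4.65 ± 0.802 CPM and from 0.603 ± 0.269 to 11.0 ± 2.22 CPM, together with Id2 (above). All 3 Id genes thus rose with groups lying apart.

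Metal transporters rose more often than they fell. Of zinc, copper and other metal transporters 16 of the 34 rose and 5 fell (median log2 fold change 0.48). Slc39a14, which brings zinc and iron into the cell, lay at 6.35 to 9.97 CPM (median 7.93) after saline and at 94.7, 101, 119, 102 and 88.4 CPM after LPS, and Slc31a2, a copper transporter of endosomes, rose from 12.3 ± 2.07 to 55.3 ± 7.54 CPM. Of sodium-coupled, chloride and bicarbonate transporters 13 of the 41 rose and 10 fell (median log2 fold change 0.17). Fxyd5, a regulator of the sodium pump, rose from 1.22 ± 0.347 to 19.3 ± 4.15 CPM and Slc9a9, an endosomal sodium-proton exchanger, fell from 117 ± 11.5 to 18.9 ± 10.3 CPM. ABC transporters had 10 rises and 6 falls among 31, the larger ones downward: Abcb4, a phospholipid floppase, fell from 21.4 ± 2.61 to 3.25 ± 0.795 CPM and Abca9 fell from 447 ± 35.0 to 166 ± 41.4 CPM. By DESeq2 that list had 8 and 8, and without saline replicate 6 it had 6 rises.

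Zinc finger, homeobox and nuclear receptor genes fell more often than they rose. Zinc finger proteins named Zfp, many of them DNA-binding repressors, were the largest list, and 23 of the 337 rose and 94 fell (median log2 fold change -0.26). Their share of rises was 6.82%, beside the 23.3% over all genes. By class, 7 of 88 rose and 24 fell under 1 CPM per kb, 7 of 182 rose and 49 fell at 1 to 4, and 8 of 64 rose and 20 fell at 4 to 16. Zfp69 fell from 26.8 ± 9.14 to 3.80 ± 0.413 CPM and Zfp827 fell from 10.4 ± 2.08 to 1.29 ± 0.664 CPM. Most changes were small, since 34 of the 94 falls reached 2-fold. Of zinc finger and BTB proteins 4 of the 40 rose and 15 fell (median log2 fold change -0.17). Bach2, a transcriptional repressor, fell from 30.9 ± 2.36 to 9.25 ± 0.990 CPM. Of homeobox and SOX factors 4 of the 30 rose and 14 fell (median log2 fold change -0.49). Lmo2, a partner of blood cell transcription factors, fell from 41.5 ± 2.53 to 10.2 ± 0.965 CPM, and Cux2 fell from 6.28 ± 1.84 to 0.858 ± 0.212 CPM. Of nuclear receptors 5 of the 34 rose and 13 fell (median log2 fold change -0.26). The clock-linked receptors Nr1d2 and Rora fell from 28.9 ± 4.80 to 4.10 ± 2.62 CPM and from 10.5 ± 2.36 to 2.77 ± 1.44 CPM, and Nr3c2, the mineralocorticoid receptor, fell from 17.4 ± 2.45 to 4.04 ± 1.11 CPM. Of Kruppel-like and specificity protein factors 4 of the 16 rose and 4 fell (median log2 fold change -0.14). Klf10 rose from 8.39 ± 2.59 to 32.9 ± 6.58 CPM and Klf2 fell from 41.7 ± 14.8 to 13.0 ± 2.47 CPM.

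Among histone genes 2 of the 40 rose and 14 fell (median log2 fold change -0.76). Hist1h2be fell from 10.6 ± 1.83 to 1.45 ± 0.693 CPM. Most replication-dependent histone transcripts end in a stem-loop without a poly(A) tail, while these libraries were primed at the tail. The histone share of all counts overlapped between groups, at 0.0774 to 0.0929% after saline and 0.0678 to 0.0892% after LPS (exact permutation p = 0.188). Of p53 pathway genes 11 of the 30 rose and 3 fell (median log2 fold change 0.12). Cdkn1a, the cell cycle inhibitor p21, rose from 26.6 ± 8.58 to 198 ± 35.6 CPM, Fas, a death receptor, rose from 0.376 ± 0.276 to 4.08 ± 1.60 CPM and Tigar, a regulator of glycolysis, rose from 1.44 ± 0.519 to 9.82 ± 1.31 CPM. The calls among chromatin remodelling subunits were near the background. Of 62 remodelling genes 11 rose and 14 fell, with Baz1a (26.3 to 57.8 CPM) higher and Chd9 (265 to 133 CPM) lower. Over all lists of transcription and the genome, 75 of 669 rose and 183 fell. In the lowest class 16 of 168 rose and 45 fell (all genes 13.3% higher and 19.4% lower). At 1 to 4 CPM per kb, 26 of 323 rose and 84 fell (all genes 21.2% and 21.1%). At 4 to 16, 26 of 158 rose and 50 fell (all genes 31.8% and 23.3%). The small upper groups went the other way, with 6 of 16 rising and 4 falling at 16 to 64 and 1 of 4 and 0 at 64 and over.

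In the ubiquitin system the substrate adaptors fell more often than they rose. Of cullins, F-box and SOCS-box adaptors, which choose the targets of ubiquitin ligases, 13 of the 141 rose and 42 fell (median log2 fold change -0.14). The Kelch adaptors Klhl3, Klhl38 and Klhl23 fell from 15.3 ± 2.94 to 1.12 ± 0.556 CPM, from 8.27 ± 3.21 to 0.822 ± 0.515 CPM and from 8.65 ± 2.70 to 1.18 ± 0.540 CPM. The list summed to 3462 to 3945 CPM after saline and 2441 to 2703 after LPS, with no overlap. Among RING finger ligases the calls were balanced (21 rises, 20 falls among 91), and the rises were led by the following. Rnf169, a DNA damage ligase, rose from 84.4 ± 22.6 to 450.3 ± 125 CPM, Rnf149 rose from 20.2 ± 3.27 to 94.9 ± 11.0 CPM and Rnf213, a large ligase that acts on bacterial LPS, rose from 126 ± 11.1 to 457 ± 83.7 CPM. Of deubiquitinases 20 of the 71 rose and 14 fell (median log2 fold change 0.03), led by Usp18, which removes the ubiquitin-like ISG15 (2.21 to 20.1 CPM), and downward by Usp11 (12.5 to 3.83 CPM).

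The calls also differed with the genomic span of a gene. Of protein-coding genes spanning under 10 kb, 32.6% of 2846 rose and 14.5% fell. At 10 to 30 kb the shares were 28.2% and 18.1%, at 30 to 100 kb 23.2% and 23.8%, and at 100 kb and over 17.6% rose and 34.3% fell of 1503 genes. The median span was 19.2 kb among genes that rose, 35.3 kb among those that fell and 23.3 kb among those not called. The shares were also taken within abundance classes. At 4 to 16 CPM per kb 43.7% of 797 genes under 10 kb rose and 13.7% fell, whereas 18.1% of 387 genes at 100 kb and over rose and 43.7% fell. In the lowest class the shares of rises were flat, 14.4% under 10 kb and 15.5% at 100 kb and over, and those of falls went from 17.4% to 23.8%. Genes are not independent replicates, and these shares carry no test. The part of span in the counts of the lists above was not tested.

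**Figure D5:**
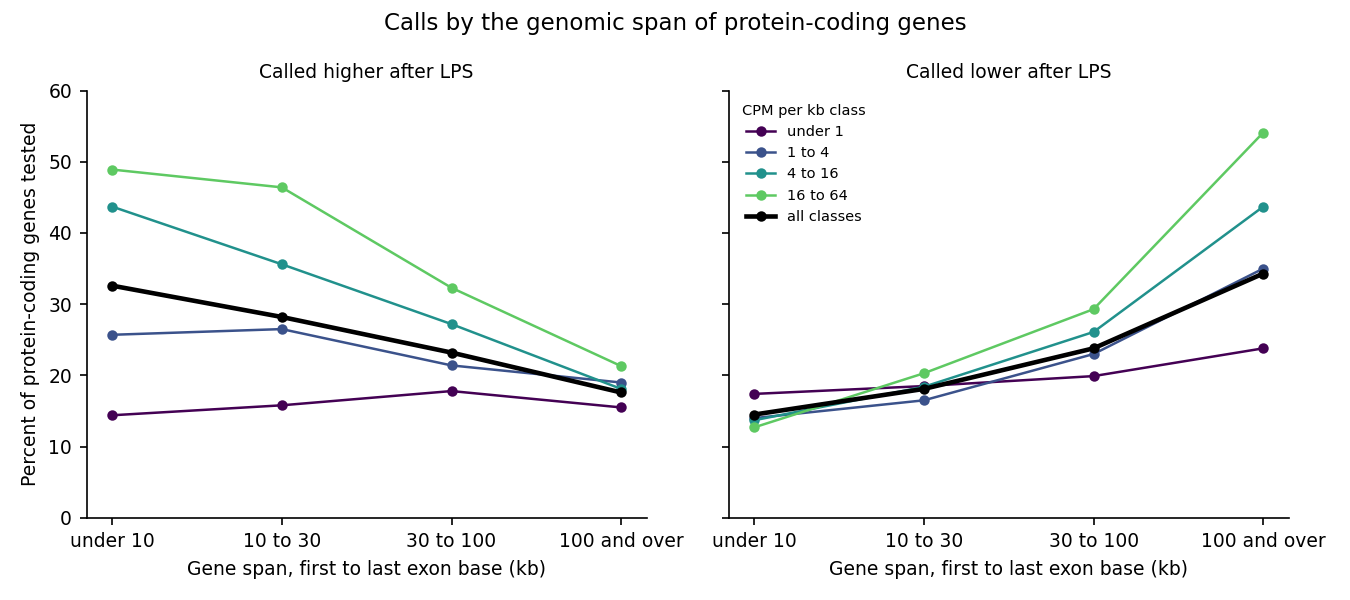
Percent of tested protein-coding genes called higher (left) and lower (right) after LPS by genomic span in kb, for all classes together (black) and within 4 abundance classes (colours); the class at 64 and over enters the black line only, since it holds 3 genes of 100 kb and over. From 4 CPM per kb upward the share called higher declines and the share called lower climbs with span, to 18.1% and 43.7% at 100 kb and over in the class at 4 to 16.

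Long non-coding RNAs leaned downward. Of 2306 tested, 225 rose and 575 fell (median log2 fold change -0.32), beside 3121 and 2474 of 11793 protein-coding genes (median 0.05). Of the non-coding genes, 1221 lay under 1 CPM per kb. Pseudogenes were balanced, with 91 rises and 84 falls among 612. The strand setting of the counting is not stated, and reads of non-coding genes that overlap a protein-coding gene may belong to either.

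Promoter letters were compared between genes called at least 2-fold higher (1026 with a RefSeq window) and lower (862). A set of 15 motifs was searched, and only some are given here. The core of the interferon-stimulated response element (GAAA, any 2 bases, GAAA) was in 7.31% of genes called higher and in 3.48% of genes called lower, beside 3.87% of all genes tested with a window and 3.99% of all genes in the table. The AP-1 site TGANTCA was in 9.55% and 6.03% (5.88% tested, 8.97% all), and the PU.1 site GAGGAAGT, of a factor of myeloid cells, in 6.73% and 4.41% (3.91% tested, 3.69% all). The ETS site CCGGAAG, frequent in promoters of broadly expressed genes, was in 16.2% of genes called higher and 8.00% of genes called lower, beside 22.6% of genes not called and 9.93% of all genes. An NF-kB site (GGGA, any base, TT, any base, CC) was in 2.05% and 1.28% (1.63% tested, 1.38% all), and TATAAA in 12.7% and 11.5% (8.74% tested, 15.7% all). All were searched on both strands of the 300-base windows, and some overlap one another, as GAGGAAGT does with other ETS sites. A match says only that these letters are present, and these shares were not tested.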

How the data were processed

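RNA of sorted striatal microglia was sequenced from 21 libraries, 11 of them compared here. The authors deposited estimated counts per gene, also called expected counts, made from aligned reads, in 1 table of 55487 genes. The submitters' processing notes name STAR, RSEM and DESeq2 without versions. Genome build, annotation and strand setting: not given in the sources used here. Identifiers were matched to GENCODE M21 (GRCm38), and 260 did not match. Estimates were rounded to whole counts (6.27% were not whole).

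edgeR 4.0.16 in R 4.3.3 was fitted to 20 libraries (the library titled as excluded was left out) with TMM scaling, 1 mean per group and the sequencing batch as a term. Genes passed a filter of at least 10 counts (edgeR's default rule, minimum total 15), which kept 14741 genes and 99.9% of counts. A gene was called at a Benjamini-Hochberg adjusted p under 0.05 in the robust quasi-likelihood test. The biological coefficient of variation was 0.252 on 15 residual degrees of freedom. Group sizes of 6 and 5 gave a median standard error of 0.22.

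Pathway and family lists, and the rule for named genes, were chosen with earlier results of these data known. The rule took, in each abundance class, the called protein-coding genes with the 5 highest and the 5 lowest log2 fold changes, if their groups did not overlap and they were in none of the usual microglial or cell type lists. From each pathway list it took up to 4 called members with the largest changes. Marker genes and the synthetases of the promoter search are named outside it. Alternatives were other scalings, DESeq2 1.42.0, limma 3.58.1 (voom), other filters, other samples in the fit, other class definitions, a block for the replicate number or for a second number in the sample IDs, and leaving out each library. Lists were not tested as sets. Promoter windows came from RefSeq (GRCm38.p6). A few genes and lists are not reported here.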

Additional observations from a re-analysis of the deposited data

Results flagged for a closer look

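Of 432 groups of libraries looked at, covering the named genes and the library measures, 34 (7.87%) held a library far from the others of its group. Chance flags about 1 in 20 such groups. Of the 34, 10 lay in saline replicate 5 and 6 in saline replicate 3.

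Saline replicate 5 was lowest in mitochondrial protein-coding transcripts (0.426% of counts, next 0.695%) and highest on the second principal component (57.7, next 2.81). In the same library CPM was highest of the saline group for Hcar2 (6.70), Arg1 (1.28), Rab7b (0.874), Phb (23.1), Tomm40 (13.1), Slc9a9 (138) and Ly6c2 (0.466, with 0 in the other 5 saline libraries), and lowest for Cd44 (0.233). Saline replicate 3 was lowest for Gars (8.69), Yars (8.06), Tars2 (10.9) and Rnf149 (14.0), and highest for Notch4 (49.9, next 18.5) and Sphk1 (0.625, next 0.169). Saline replicate 4 was highest for Snhg1 (30.5) and Fn1 (0.844), saline replicate 2 lowest for Mrpl12 (5.75), and saline replicate 1 highest for Acads (41.9) and lowest for Zfp827 (6.27).

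Among LPS libraries, replicate 2 was highest for Cmpk2 (14.6 CPM, next 6.89), Usp18 (36.9, next 18.3) and Rnf213 (602, next 455), each of which is known to be interferon-inducible, and for Nr1d2 (8.78, next 3.05). LPS replicate 1 was highest for Pla2g15 (63.4) and Ulk2 (56.7), and LPS replicate 5 for Bola3 (11.1) and Sema6b (39.5). LPS replicate 3 was lowest for Alg5 (35.0) and Cdkn1a (137) and highest for Hbb-bs (1.14), and LPS replicate 4 was lowest for Plxna4 (7.17) and Cdh23 (8.58). The cause of these differences was not tested.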

How the results depend on the processing

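The counts of genes called, 3439 higher and 3141 lower, were 3117 to 3488 and 2810 to 3125 when each library was left out in turn. At least 2-fold the ranges were 1492 to 1641 and 1555 to 1707. No gene called in both fits changed direction under any of the 21 other fits run. RLE, upper quartile and DESeq2 scaling moved the share of calls that were higher from 52.3% to 45.8, 44.7 and 45.5%. Among 86 lists, 10 changed the sign of their median under such a scaling and in 10 the direction with more calls reversed or evened out. The rule for named genes took 379 genes. In any 1 fit at most 9 of those tested lost their call (9 of 378 without LPS replicate 1), and 0 reversed. Genes that lost a call are not named in the text. Those of which it says that they rose or fell by the rule kept their call in each fit that tested them, which is partly a matter of this choice.

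Class counts depended on how the classes were drawn. With a filter of 50 counts, 187 genes rose and 303 fell in the lowest class. With classes by CPM without length the counts were 204 and 305 under 1, 460 and 623 at 1 to 4, 1207 and 883 at 16 to 64, and 486 and 444 at 64 and over. With classes from saline libraries of MIA offspring, rises were 946 under 1, 235 at 16 to 64 and 86 at 64 and over. Leaving out each library gave, for rises and falls, 486 to 556 and 719 to 807 under 1, 1039 to 1185 and 1037 to 1137 at 1 to 4, 1068 to 1220 and 800 to 909 at 4 to 16, 342 to 383 and 188 to 209 at 16 to 64, and 123 to 143 and 57 to 67 at 64 and over.

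In lists, leaving out 1 library moved some small counts. Rises among nuclear receptors went from 5 to 3 without saline replicate 6 or without LPS replicate 3, 4 or 5, and rises among protein kinase C and phospholipase C genes from 5 to 3 without saline replicate 2 or LPS replicate 5. Falls among glutathione genes went from 5 to 3 without saline replicate 5 or LPS replicate 2 or 5, and falls among metal transporters from 5 to 3 without saline replicate 1 or 2 or LPS replicate 1. Falls among Mediator and Integrator genes went from 3 to 5 without saline replicate 5. Rises of adhesion G protein-coupled receptors went from 2 to 1 without any of 6 libraries.

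The labels do not say that the replicate numbers pair libraries. Deviations of the 5 same-numbered pairs correlated at 0.0277 to 0.111, and 2 of 5 LPS libraries correlated best with their own number. With the replicate number as a block, 3276 genes rose and 3019 fell. The sample IDs carry a second number, which the labels do not explain, and 4 of its values occur in both groups. The 5 pairs of libraries that share it correlated at -0.0178 to 0.0928. With it as a block in the control libraries alone, 2939 genes rose and 2753 fell, and 82.1% of the calls were shared. Genes under 1 CPM per kb carried a median standard error of 0.48, and changes below 2-fold were seldom detectable there.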
